A study of Homo sapiens with 16 samples.

Results

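The histone genes of the U95Av2 array were followed in U937 cells after induction of AML1-ETO. They were taken as every probe set, a group of oligonucleotides that reads 1 transcript or family, with at least 1 platform symbol starting with H1-, H2A, H2B, H3C, H3-, H4C or H4-, or with the older HIST and H2AF or H3F names. This rule found 53 of 12626 probe sets, which carry 64 histone symbols. Of these, 43 probe sets belong to cluster genes and 10 to variants (H1-10, H2AX, H2AZ1, H2AZ2, H2AP, an H2AB probe set and probe sets of H3.3). The rule used names only, not measured values.

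U937 is a human myeloid leukaemia line with monocytic features. All 16 arrays are of U937 cells that carry an AML1-ETO construct under a tetracycline-controlled promoter, the control cells included. AML1-ETO (RUNX1-RUNX1T1) is the fusion transcription factor of acute myeloid leukaemia with t(8;21). The induced groups are those of 12, 24, 48 and 72 h, the control groups those of 0, 24, 48 and 72 h, and each of the 8 groups has 2 arrays. Whether the 2 arrays of a group come from separate cultures is not stated in the labels, and the p-values below reflect the spread of these arrays, part or all of which may be technical. The series sets expression in induced cells against that in control cells over these hours.

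Cluster histone genes are the replication-dependent ones. They lie together in gene clusters, have no introns, are transcribed mainly in S phase to package newly made DNA, and their mRNAs normally end in a stem-loop bound by SLBP rather than in a poly(A) tail. Several of them are known to give polyadenylated transcripts as well, above all in cells that leave the cell cycle and differentiate. Variant genes such as H2AZ1 and H2AZ2 have introns, give polyadenylated mRNAs and are expressed through the whole cell cycle, while H2AX can give both kinds of mRNA. Target for these arrays was primed with oligo-dT, per the labels, so the amount of a histone mRNA and the share of it that carries a poly(A) tail cannot be told apart. In RNA from whole cultures, fewer cells that express a gene and less of its RNA per cell cannot be told apart either.

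The promoters of 4 members are shown, from RefSeq windows of 300 bases on GRCh38.p14. Each window runs from 250 bases before to 50 bases after the start of the gene. H2BC21 and H2BC12 are cluster genes that read higher in induced cells at 48 and 72 h, and H2AZ1 and H2AX are variants that fell at 72 h. The calls of H2BC21 are no support for a rise, for a reason given below with the filter. Capitals mark the octamer ATTTGCAT, the letters TATAAA and the letters CCAAT, each searched on both strands, and overlapping matches run together.
H2BC21, chr1:149886633-149886932, minus strand: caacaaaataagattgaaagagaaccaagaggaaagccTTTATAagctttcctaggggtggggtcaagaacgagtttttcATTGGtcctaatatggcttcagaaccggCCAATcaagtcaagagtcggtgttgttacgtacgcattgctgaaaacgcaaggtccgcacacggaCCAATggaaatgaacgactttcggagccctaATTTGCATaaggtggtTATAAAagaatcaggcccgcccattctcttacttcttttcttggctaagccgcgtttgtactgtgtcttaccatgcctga
H2BC12, chr6:27146809-27147108, minus strand: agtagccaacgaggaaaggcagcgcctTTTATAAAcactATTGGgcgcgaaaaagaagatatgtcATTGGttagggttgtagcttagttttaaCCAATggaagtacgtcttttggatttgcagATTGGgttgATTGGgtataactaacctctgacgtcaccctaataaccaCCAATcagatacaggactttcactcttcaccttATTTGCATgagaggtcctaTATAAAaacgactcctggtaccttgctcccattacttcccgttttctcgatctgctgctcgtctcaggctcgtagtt
H2AZ1, chr4:99950226-99950525, minus strand: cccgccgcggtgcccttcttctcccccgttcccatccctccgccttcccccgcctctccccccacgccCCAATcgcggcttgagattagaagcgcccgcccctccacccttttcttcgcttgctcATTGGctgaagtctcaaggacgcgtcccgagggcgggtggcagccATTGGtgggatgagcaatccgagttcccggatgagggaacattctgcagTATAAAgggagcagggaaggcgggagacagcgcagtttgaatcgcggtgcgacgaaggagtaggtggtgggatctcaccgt
H2AX, chr11:119095416-119095715, minus strand: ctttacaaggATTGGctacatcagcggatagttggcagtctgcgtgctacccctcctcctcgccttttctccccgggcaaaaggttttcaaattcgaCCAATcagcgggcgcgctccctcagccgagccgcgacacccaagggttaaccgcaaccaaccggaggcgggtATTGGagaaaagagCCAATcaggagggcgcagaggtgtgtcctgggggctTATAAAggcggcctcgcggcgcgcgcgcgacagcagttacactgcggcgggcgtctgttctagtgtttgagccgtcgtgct
The octamer is the binding motif of POU2F1 (OCT1), known from H2B promoters. It began at base -46 in both H2BC21 and H2BC12 and was not among the letters of the H2AZ1 and H2AX windows. It was also not among the letters of the H2BC13 and H2BC15 windows, genes called higher at 72 h. The windows of the symbols of 286_at, an H2A probe set that rose 16.3-fold at 72 h, did not hold it either. Nor did those of H2BC5 and of the symbols of 32609_at, whose calls are no support for a rise, as given below with the filter. The H2AC16 window held it, and H2AC16 was not called higher. Whether the octamer has a part in any of these differences was not tested. A match to TATAAA began at base -30 in H2BC21, -27 in H2BC12, and -31 in both H2AZ1 and H2AX. Of the 64 symbols, 59 had a window. The octamer was in 9 of 13 cluster H2B windows (69.2%), 6 of 10 cluster H2A windows (60%), 1 of 8 cluster H3 windows, 0 of 12 cluster H4 windows, 0 of 6 cluster H1 windows and 1 of 10 variant windows, against 1.8% of 27305 RefSeq windows. CCAAT was in 13 of 13 cluster H2B windows and 3 of 12 cluster H4 windows, against 35.7% of all windows. The letters TGTGGT, the core that RUNX proteins bind, searched likewise on both strands, were in 7 of 49 cluster windows (14.3%) and 3 of 10 variant windows (30%), against 13.1% of all windows. These matches describe letters in the windows and are no measurement of binding.

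Intensities were deposited on a linear scale with the same mean on every array (1371) and array medians of 220.3 to 337.5. The log2 scale used a floor of 135.6 for all lower values, and a fold change is given as "at least" where arrays on the lower side lay at the floor. Tests covered the probe sets that read above 292.7, the overall median, on 2 or more arrays. The label check was RUNX1T1, the ETO part of the fusion, at 8650 and 3974 in induced cells at 48 h and 10603 and 8355 at 72 h, against at most 91.4 in all control arrays. At 24 h induced replicate 1 read 1592 and induced replicate 2 read -47.5, so replicate 2 gave no sign of the fusion mRNA on this probe set, and both induced arrays of 12 h lay under the floor too. Of 10 markers of U937 and its lineage with a probe set, 7 lay above the floor on every array, while MPO did so on 8 of 16 arrays and CD68 on 4. Of 10 markers of other cell types, CD3E and COL1A1 did so on every array. The U937 markers themselves moved, with 6 of 10 lower and 1 higher at 72 h (SPI1 at log2 -3.42, CTSG at log2 -3.77), and their part in the histone results was not tested.

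Of the 53 histone probe sets, 33 passed the filter (25 of 43 for cluster genes and 8 of 10 for variants). The other 20 read at most 345 on any array, among them the probe sets of the linker histone genes H1-1, H1-2, H1-4, H1-5 and H1-6 and of the core histone genes H2AC8, H2AC15, H2AC17, H3C11, H4C9 and H4C13. Of the 25 cluster probe sets that passed, 7 exceeded the median of all values in induced cells at 48 or 72 h alone, so that they could enter the test only by being high there. These 7 were 31768_at, H2AC6, 32609_at, H2BC5, H2BC11 (153_f_at), H3C4 and 36757_at. H2BC21 and the H2B probe set 31522_f_at exceeded the median on 1 other array each. That is short of the 2 arrays the filter asks for, so they too needed the induced arrays of 48 or 72 h to enter. Cluster genes are near copies of each other, 17 of the 53 probe sets carry the suffix that Affymetrix gave to probe sets shared by a gene family, and 20 carry several symbols. Probe sets with several symbols are described by histone type only, and a named cluster gene may include signal from its copies. Members are therefore not independent of each other.

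At 72 h probe sets of H2B cluster genes stood above control cells, with some of H2A and H3, while no tested H1 or H4 cluster probe set was called higher. Of 43 cluster probe sets, 17 rose and 1 fell, 7 did not pass the test and 18 were not tested (limma, adjusted p under 0.05 over all 7824 tested probe sets). At this hour 16.1% of all tested probe sets passed upward and 13.9% downward. The 7 cluster probe sets that passed the filter through the induced arrays of 48 or 72 h alone are all among the 17, and the filter let them in for being high there, so they are no support for a rise. They hold both called H3 probe sets and 2 of the 3 called H2A probe sets. Of the other 18 tested cluster probe sets 10 rose, among them 9 of 9 of H2B and 1 of 2 of H2A, and 1 of H4 fell. Among these rises, those of H2BC21 and 31522_f_at are no support either, since both probe sets needed the same induced arrays to pass the filter. The rises of H2B probe sets spanned log2 1.12 to 4.63. Of the 10 variant probe sets, 2 rose, 2 fell, 4 did not pass the test and 2 were not tested. The median log2 difference was 0.14 over the 8 tested variant probe sets, beside 0.18 over all tested probe sets. Without the filter, 20 of the 53 probe sets rose and 2 fell. The 16.1% and 13.9% are shares of the 7824 filtered probe sets, so this count has no share beside it and is no support for a rise.

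**Figure D1:**
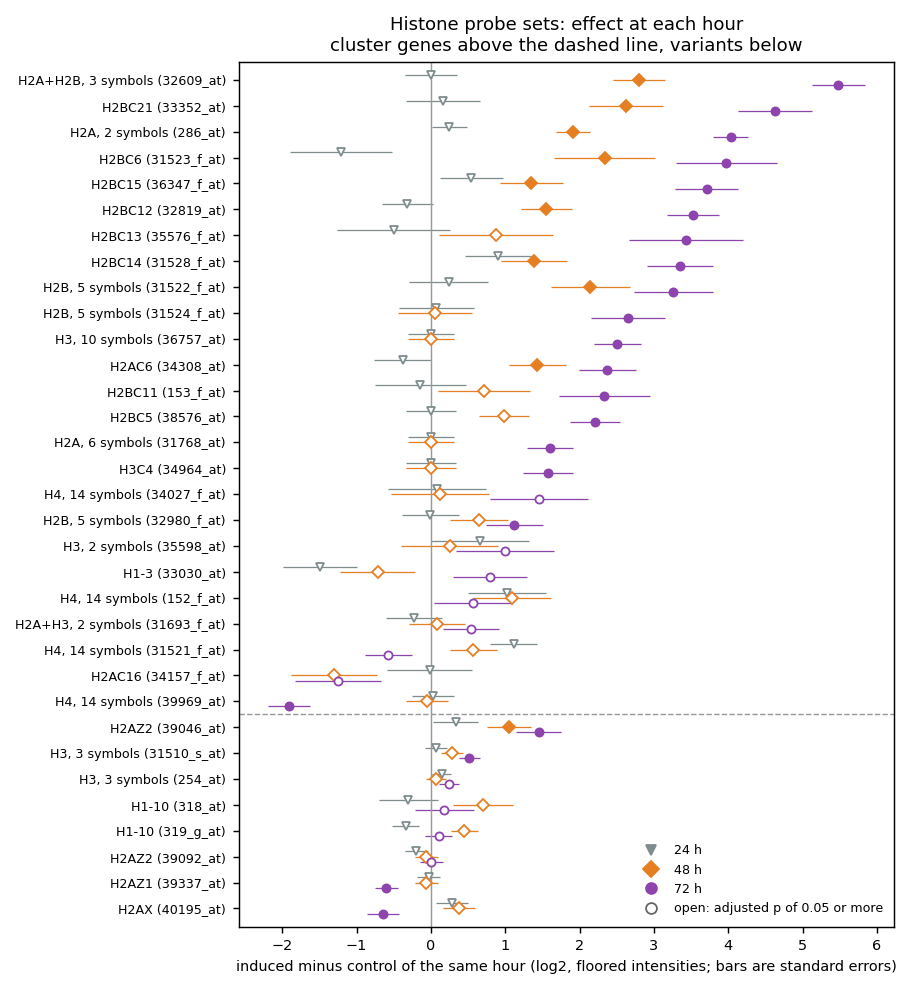
Induced minus control log2 difference by hour, for 24, 48 and 72 h (horizontal axis, on floored intensities, with bars for standard errors) for the 33 tested histone probe sets, cluster genes above the dashed line and variants below it. Filled symbols passed the test, and most H2A and H2B cluster probe sets move to the right with time. The highest, log2 5.48 at 72 h, is 32609_at, which passed the filter through the induced arrays of 48 or 72 h alone. The lowest cluster value is that of an H4 probe set at log2 -1.91.

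H2B is the core histone that pairs with H2A. H2BC21, a gene of the smaller histone cluster on chromosome 1 and one known to give polyadenylated mRNA, read 57.7 and 205 in induced cells at 12 h, 124 and 228 at 24 h, 1122 and 1421 at 48 h, and 3628 and 3107 at 72 h. Control cells read 136 and 274 at 0 h, 16.01 and 181 at 24 h, 72.9 and 311 at 48 h, and 127 and 51.8 at 72 h. The induced arrays of 48 and 72 h thus lay above every control array, and those of 12 and 24 h lay among them. H2BC21 was at least 6.15-fold higher at 48 h (log2 2.62, SE 0.50, adjusted p = 0.00257) and at least 24.8-fold higher at 72 h (log2 4.63, SE 0.50, adjusted p = 1.54e-05). The call at 48 h ended when only the groups of that hour were fitted (adjusted p = 0.0551). H2BC21 needed the induced arrays of 48 or 72 h to pass the filter, so neither call is support for a rise.

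H2BC12, a gene of the large cluster on chromosome 6, lay above the floor on every array. It read 982 and 878 in induced cells at 12 h, 673 and 924 at 24 h, 3461 and 2707 at 48 h, and 9622 and 7898 at 72 h. In control cells it read 523 and 1116 at 0 h, 902 and 1071 at 24 h, 975 and 1115 at 48 h, and 948 and 605 at 72 h. Control cells stayed between 523 and 1116 while both later induced groups lay above that range. The rise was 2.94-fold at 48 h (log2 1.55, SE 0.34, adjusted p = 0.00646) and 11.5-fold at 72 h (log2 3.52, SE 0.34, adjusted p = 6.41e-06). Leaving out replicate 1 of the induced cells or replicate 1 of the controls ended the call at 48 h (adjusted p = 0.062 and 0.0518).

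H2BC14 read 1158 and 581 in induced cells at 12 h, 611 and 549.8 at 24 h, 1830.2 and 1426 at 48 h, and 4465 and 3921 at 72 h. Its control values were 627 and 398 at 0 h, 218 and 439.7 at 24 h, 836 and 455 at 48 h, and 422 and 397 at 72 h. It rose 10.2-fold at 72 h (log2 3.35, SE 0.44, adjusted p = 7.77e-05). H2BC15 moved in the same way and read 2065 and 1769 in induced cells at 72 h, against 94.1 and 157 in control cells at 72 h, a rise of at least 13.1-fold (adjusted p = 2.51e-05). Both were called at 48 h as well (adjusted p = 0.0431 and 0.0397). There the calls of both ended after quantile normalization, after median centring, without the filter and when the groups of that hour were fitted alone. That of H2BC15 also ended with the floor at the 30th percentile. Adjusted p over these settings was 0.0507 to 0.102 for H2BC14 and 0.0583 to 0.0854 for H2BC15. The calls also ended without any of 3 arrays for H2BC14 (log2 0.95 to 1.57) or any of 4 for H2BC15 (log2 1.07 to 1.63).

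The other H2B probe sets rose at 72 h as well, but H2BC5, H2BC11 and 31522_f_at needed the induced arrays of 48 or 72 h to pass the filter. The calls of these 3 probe sets are no support for a rise. H2BC6 read 2687 and 1687 in induced cells at 72 h, against 30.7 and 11.4 in control cells at 72 h (at least 15.7-fold, adjusted p = 0.000608), but its 24 h controls read 249.7 and 693, so control cells were not uniformly low. H2BC13 read 2519.8 and 2322 in induced cells at 72 h, against 329 and 153 in control cells (10.8-fold, adjusted p = 0.00384). H2BC5 was under the floor on all 8 control arrays and on the induced arrays of 12 and 24 h, and read 225 and 318 in induced cells at 48 h and 696 and 563 at 72 h (at least 4.62-fold at 72 h, adjusted p = 0.000242). H2BC11 read 733 and 635 in induced cells at 72 h, against -34.6 and 69.7 in control cells, by the family probe set 153_f_at (at least 5.03-fold, adjusted p = 0.0107). That call ended without replicate 1 of the induced cells (adjusted p = 0.0592) or replicate 1 of the controls (adjusted p = 0.0558), with the floor at the 30th percentile (adjusted p = 0.0653) and on the asinh scale (adjusted p = 0.0512). The second H2BC11 probe set, 35562_at, read at most 184 on any array, and the second H2BC15 probe set, 36348_r_at, at most 52.4. The 3 probe sets that share 5 H2B symbols also rose at 72 h, at least 9.56-fold (31522_f_at), 6.29-fold (31524_f_at) and 2.17-fold (32980_f_at). At 48 h H2BC6 (at least 5.05-fold higher, adjusted p = 0.0285) and 31522_f_at (at least 4.42-fold higher, adjusted p = 0.0123) were also called. Both calls ended without induced replicate 1 (log2 1.549 and 1.835) or either control array of that hour (log2 2.336 and 2.144). The H2BC6 call also ended without the filter (adjusted p = 0.0968), with the floor at the 50th percentile (0.115) and with only the groups of that hour (0.0916). That of 31522_f_at ended with the floor at the 30th percentile (0.0871). The call of 32980_f_at rested on 1 array, since it read 2866 in induced replicate 1 and 1082 in induced replicate 2, against 839 and 784 in control cells, and without induced replicate 1 its log2 difference was 0.42 (adjusted p = 0.416). That call also ended without either control array (adjusted p = 0.123 and 0.137) and under 5 other settings (adjusted p of 0.0525 to 0.215).

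**Figure D2:**
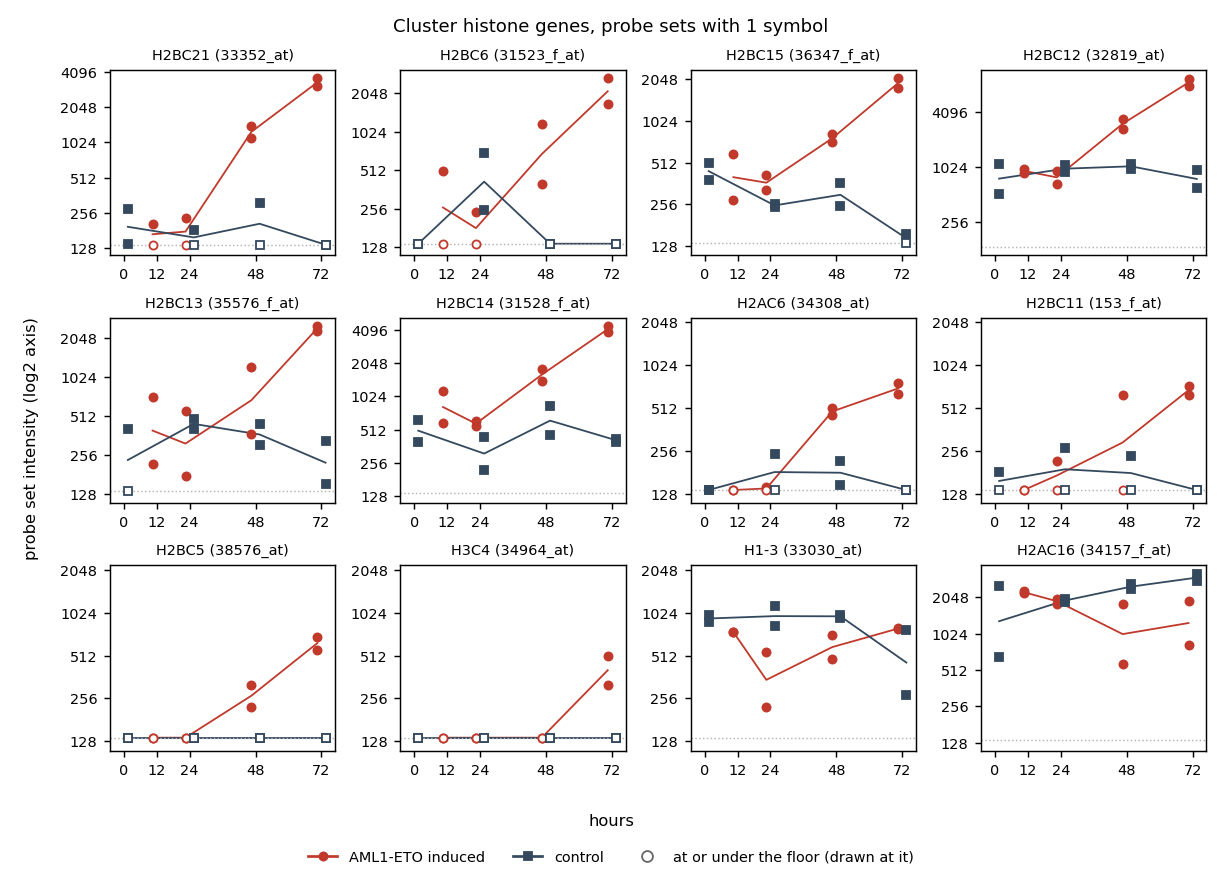
Intensity on every array (vertical axis, log2 scale, dotted line at the floor) against hours for the 12 tested cluster probe sets with 1 symbol, with induced cells as circles to the left and control cells as squares to the right at each hour. Lines join group means of the log2 values. Of the 12 panels, 10 end with both induced arrays of 72 h above both control arrays with a called difference, where 16.1% of all tested probe sets passed upward. Of these, H2AC6, H2BC5, H2BC11, H2BC21 and H3C4 needed the induced arrays of 48 or 72 h to pass the filter and are no support for a rise. H1-3 and H2AC16 have no called difference.

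H2A cluster genes encode the partner of H2B. The probe set 286_at has 2 symbols, both of H2A cluster genes. It read 813 and 603 in induced cells at 12 h, 828 and 980.3 at 24 h, 3449 and 3297 at 48 h, and 13078 and 10959 at 72 h. The control arrays read 839 and 1055 at 0 h, 782 and 735 at 24 h, 857 and 935 at 48 h, and 711 and 755 at 72 h. Replicates of a group differed little beside the rise, which was 3.77-fold at 48 h (log2 1.91, SE 0.23, adjusted p = 0.000101) and 16.3-fold at 72 h (log2 4.03, SE 0.23, adjusted p = 1.71e-07). Among the 33 tested histone probe sets this was the smallest adjusted p at either hour.

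A second probe set, 32609_at, with 3 H2A and H2B symbols of which 2 are those of 286_at, was below 0 on all 8 control arrays and on all 4 induced arrays of 12 and 24 h. It read 1019 and 868 in induced cells at 48 h and 7402 and 4960.3 at 72 h. It was at least 6.94-fold higher at 48 h (adjusted p = 0.000134) and at least 44.7-fold higher at 72 h (log2 5.48, SE 0.35, adjusted p = 2.93e-07). H2AC6, another gene known for polyadenylated transcripts, read 513 and 455 in induced cells at 48 h and 642 and 767 at 72 h, against 218 and 147 in control cells at 48 h and 41.0 and 84.4 at 72 h. Its rise was 2.69-fold at 48 h (adjusted p = 0.0187) and at least 5.18-fold at 72 h (adjusted p = 0.00039), and the 48 h call ended with the floor at the 30th percentile (adjusted p = 0.33) and on the asinh scale (adjusted p = 0.136). It also ended with only the groups of 48 h in the fit (adjusted p = 0.0686). The same held without either induced array of 48 h (log2 1.344 and 1.515) and without control replicate 2 (log2 1.146). Both 32609_at and H2AC6 passed the filter through the induced arrays of 48 or 72 h alone, so their calls are no support for a rise.

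H2AC16 did not take part in the rise. It read 1783 and 576 in induced cells at 48 h and 1889.8 and 829 at 72 h, against 2388 and 2622 in control cells at 48 h and 3202 and 2763 at 72 h. Induced arrays lay below control arrays at both hours, but the replicates were far apart and the differences did not pass the test (log2 -1.30, adjusted p = 0.141, and log2 -1.25, adjusted p = 0.121). The H2A probe set 31768_at, with 6 symbols, passed the filter through the induced arrays of 72 h alone, where it read 461 and 376 against 138 and 33.8 in control cells (at least 3.04-fold, adjusted p = 0.00158), and its call ended with the floor at the 30th percentile (adjusted p = 0.0717) and on the asinh scale (adjusted p = 0.0524).

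H3 cluster genes encode the canonical H3 proteins laid down at replication. Both H3 probe sets that were called stayed under the floor until 48 h in induced cells and on every control array. They passed the filter through the induced arrays of 72 h alone, so their calls are no support for a rise. The probe set 36757_at, with 10 H3 symbols, read 37.4 and 19.4 in induced cells at 48 h and 832 and 716 at 72 h, against -305 and -97.5 in control cells at 72 h (at least 5.69-fold, log2 2.51, SE 0.31, adjusted p = 5.15e-05). H3C4 read 319 and 511 in induced cells at 72 h, against -86.2 and -45.7 in control cells (at least 2.98-fold, adjusted p = 0.00288). With the floor at the 50th percentile its adjusted p was 0.054. The probe sets with an H3 symbol and either a further H3 or an H2A symbol, 35598_at and 31693_f_at, did not pass the test at 72 h (log2 0.99, adjusted p = 0.282, and log2 0.54, adjusted p = 0.307).

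H4 pairs with H3 in the nucleosome core. The probe set 39969_at, whose 14 symbols are all H4 cluster genes, read 12114 and 9154 in induced cells at 12 h, 10481 and 11228 at 24 h, 10062 and 11441 at 48 h, and 1949 and 4408 at 72 h. Control cells read 10988 and 11737 at 0 h, 11954 and 9439 at 24 h, 11274 and 10945 at 48 h, and 11730.0 and 10315 at 72 h. Only the induced arrays of 72 h lay apart from the rest, among which no array was under 9154. Its fall at 72 h was 3.75-fold (log2 -1.91, SE 0.28, adjusted p = 0.000182), and with only the groups of that hour in the fit the adjusted p was 0.0521. The 3 other tested H4 probe sets carry the same 14 symbols and differed by log2 -0.58 (31521_f_at, adjusted p = 0.195), 0.57 (152_f_at, adjusted p = 0.452) and 1.45 (34027_f_at, adjusted p = 0.117), so the 4 probe sets did not share a sign. Here 39969_at cannot be assigned to a gene.

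**Figure D3:**
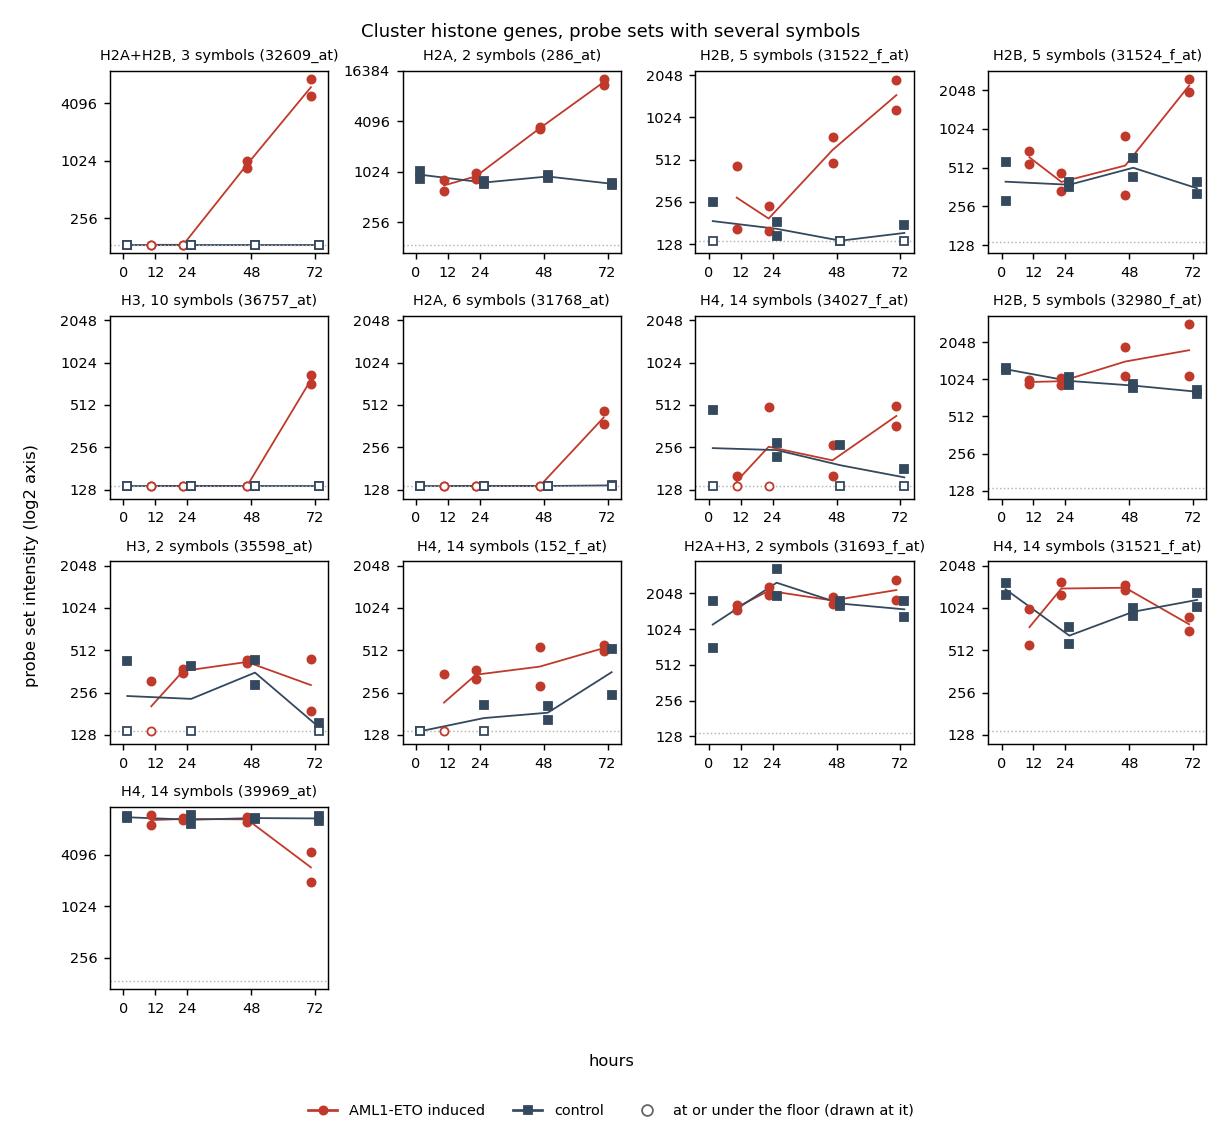
Intensity on every array (vertical axis, log2 scale, dotted line at the floor) against hours for the 13 tested cluster probe sets with several symbols, each named by histone type, number of symbols and probe set, with induced cells as circles to the left and control cells as squares to the right, open where at the floor, and lines join group means. The H2A probe set 286_at climbs to 13078 and 10959 in induced cells at 72 h, while the H4 probe set 39969_at drops to 1949 and 4408 there.

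The linker histone H1 binds the DNA that enters and leaves the nucleosome. H1-3 was the tested H1 cluster gene and read 222 and 538 in induced cells at 24 h, 481 and 716 at 48 h and 788 and 798 at 72 h, against 824 and 1139.6 in control cells at 24 h, 988 and 944 at 48 h and 269 and 778 at 72 h. No difference passed the test (adjusted p = 0.821, 0.374 and 0.259 at the 3 hours), and the order of the groups at 24 h was the opposite of that at 72 h. H1-10 is a variant linker histone with a polyadenylated mRNA. On 319_g_at it read 14677 and 14643 in induced cells at 48 h and 15398 and 15541 at 72 h, against 11044 and 10431 in control cells at 48 h and 13645 and 15221 at 72 h, and neither difference passed the test (adjusted p = 0.099 and 0.703). On 318_at it read 3236 and 2766 in induced cells at 48 h and 5372 and 2748 at 72 h, against 1582 and 2132 in control cells at 48 h and 2996 and 3834 at 72 h, likewise with no call (adjusted p = 0.264 and 0.773).

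Among variants, H2AZ1 and H2AX fell at 72 h. H2AZ1 encodes H2A.Z, which sits at promoters and is deposited outside replication. It read 15659.5 and 14057 in induced cells at 12 h, 14209.8 and 14286 at 24 h, 13957 and 14349.5 at 48 h, and 10619.5 and 7712 at 72 h. In control cells it stayed between 12615 and 15596 on all 8 arrays. The fall at 72 h was 1.52-fold (log2 -0.60, SE 0.15, adjusted p = 0.00922). The call ended without induced replicate 2 (adjusted p = 0.107), without control replicate 1 (adjusted p = 0.0878) and when only the groups of that hour were fitted (adjusted p = 0.135).

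H2AX encodes the variant that is phosphorylated at DNA breaks. It read 6073 and 5368 in induced cells at 12 h, 6967 and 6122 at 24 h, 5553 and 5682 at 48 h, and 2642 and 2043 at 72 h. Control cells read 4004 and 2418 at 0 h, 5836 and 4946 at 24 h, 4319 and 4329.9 at 48 h, and 3432 and 3818 at 72 h. The control arrays were themselves spread over 2418 to 5836, and 1 control array of 0 h lay between the induced arrays of 72 h. The fall at 72 h was 1.56-fold (log2 -0.64, SE 0.21, adjusted p = 0.0373). It lost its call without induced replicate 2 (adjusted p = 0.237), without control replicate 1 (adjusted p = 0.0861), without control replicate 2 (adjusted p = 0.155), without the filter (adjusted p = 0.0855), without the mean-variance trend (adjusted p = 0.0792) and when only the groups of that hour were fitted (adjusted p = 0.0812).

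H2AZ2 encodes the second H2A.Z protein, and its probe sets disagreed. On 39046_at it read 2997 and 4671 in induced cells at 12 h, 4545 and 5922 at 24 h, 7044 and 9406 at 48 h, and 9296 and 8935 at 72 h, against 2783 to 5428 on the 8 control arrays. The rise was 2.07-fold at 48 h (adjusted p = 0.0263) and 2.73-fold at 72 h (log2 1.45, SE 0.30, adjusted p = 0.0024), and at 48 h it lost its call without induced replicate 2, control replicate 1 or control replicate 2 (adjusted p = 0.181, 0.0865 and 0.129), without the filter (0.1) and without the trend (0.0596). On 39092_at the same gene read 9679 and 12215 in induced cells at 72 h, against 12381 and 9516 in control cells (log2 0.00, SE 0.16).

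H3.3 is the H3 variant that replaces the canonical form outside S phase, and both of its probe sets carry 3 symbols. On 31510_s_at induced cells read 12304 and 13256 at 72 h, against 9366 and 8511 in control cells (1.43-fold, adjusted p = 0.0157), a call that ended after median centring (adjusted p = 0.171), without the trend (0.0637), with only the groups of that hour (0.065) and without induced replicate 2 or control replicate 2 (0.0877 and 0.0895). On 254_at they read 15649 and 15627, against 13410.1 and 13077 in control cells (log2 0.24, adjusted p = 0.195).

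**Figure D4:**
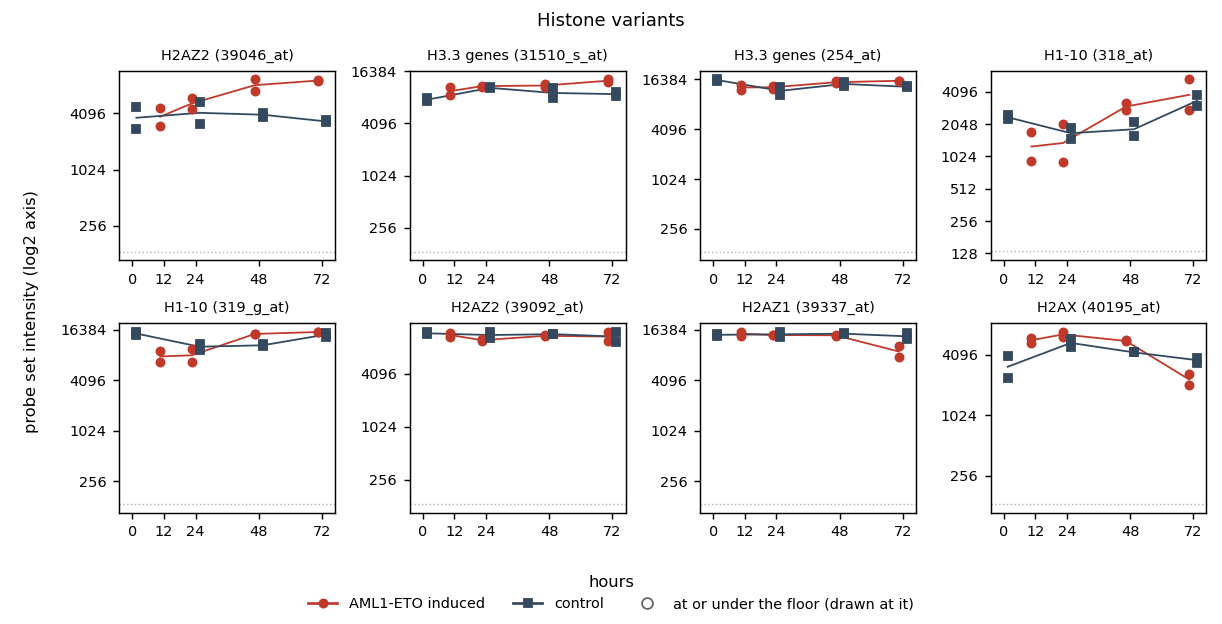
Intensity on every array (vertical axis, log2 scale, dotted line at the floor) against hours for the 8 tested variant probe sets, with induced cells as circles to the left and control cells as squares to the right at each hour. Lines join group means of the log2 values. The probe set of H2AZ1 ends at 10619.5 and 7712 in induced cells at 72 h, below the control arrays, while the H2AZ2 panels differ from each other.

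In the average over 24, 48 and 72 h, which shares its arrays with the single hours, 17 of the 53 probe sets rose and 1 fell, where 18.5% of all tested probe sets passed upward and 13.4% downward. Of these rises, 5 were of cluster probe sets that passed the filter through the induced arrays of 48 or 72 h alone. The average includes those arrays, so these 5 are no support for a rise, nor are H2BC21 and 31522_f_at, which needed them to pass. At 24 h none of the 33 probe sets passed the test (limma, 0 calls, and 0% of all tested probe sets), and 2 had an unadjusted p under 0.05, the H4 probe set 31521_f_at above control (log2 1.11) and H1-3 below it (log2 -1.49). At 48 h, 9 of 43 cluster probe sets and 1 of 10 variant probe sets rose and 0 fell, where 10.5% of all tested probe sets passed upward and 8.68% downward. Of these 9, 2 (32609_at and H2AC6) passed the filter through the induced arrays of 48 or 72 h alone. H2BC21 and 31522_f_at, also among the 9, needed those arrays to pass. None of these is support for a rise at 48 h. The effects at 24, 48 and 72 h differed from each other for 14 of the 33 probe sets by the F test, where 10.9% of all tested probe sets were called, and all 14 were cluster probe sets. For 5 of the 14 a difference between hours was built into their entry, since they passed the filter through the induced arrays of 48 or 72 h alone, and the other 9 are among the 18 remaining cluster probe sets. Of these 9, H2BC21 and 31522_f_at also needed those arrays to pass, so the same limit holds for them. Without induced replicate 2 of 24 h, the array with RUNX1T1 under the floor, the count was 7, and without replicate 1 of the same group it was 9. The step from 48 to 72 h by itself was called for 3 probe sets, all upward, where 0.0895% of all tested probe sets were called upward. These were 286_at (4.34 times larger at 72 h, log2 2.12, SE 0.33, adjusted p = 0.0133), 32609_at and 36757_at (adjusted p = 0.031 each). The last 2 lost this call with the floor at the 30th percentile (adjusted p = 0.34 and 0.14) and on the asinh scale (adjusted p = 0.431 and 0.412). Both also passed the filter through the induced arrays of 48 or 72 h alone, so their calls are no support for a step. For H2BC12 the step was log2 1.97 (SE 0.49, adjusted p = 0.103) and for the H4 probe set 39969_at log2 -1.86 (SE 0.39, adjusted p = 0.0574).

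At 12 h, where the control is that of 0 h, H2AX was 1.84-fold higher (adjusted p = 0.0448) and H1-10 on 319_g_at 1.88-fold lower (adjusted p = 0.0163), 2 calls that ended without the filter, where 1.16% of all tested probe sets passed upward and 2.12% downward. For H1-10, induced cells read 9081 and 6856 at 12 h, against 15641 and 14052 in control cells at 0 h. The control cells of 24 h read 9534 and 11166, nearer to the induced cells of 12 h than to the controls of 0 h. For H2AX the controls of 24 h, at 5836 and 4946, likewise lay near the induced cells of 12 h. None of the 25 cluster probe sets was called at 12 h, and 1 of them had an unadjusted p under 0.05. In control cells over time, 0 of 33 probe sets passed the F test, 5 had an unadjusted p under 0.05, and 0.192% of all tested probe sets were called.

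The genes around histone supply were read beside these values, from lists chosen with earlier results of these data known. Of 49 genes of DNA replication and S phase, 46 were tested, and at 72 h 39 fell and 0 rose (median log2 -1.56, against 0.18 over all tested probe sets, of which 13.9% fell). POLD1, the catalytic subunit of DNA polymerase delta, fell at least 36.3-fold (adjusted p = 4.37e-09) and POLD2, another subunit of the same polymerase, fell 12.5-fold (adjusted p = 2.32e-06). CCNE2, a cyclin of S phase entry, was higher in the average effect (1.64-fold, adjusted p = 0.0477) and differed by log2 0.24 at 72 h (adjusted p = 0.72). At 48 h 18 of the 46 fell and 0 rose, where 8.68% of all tested probe sets fell, and at 24 h 0 were called, as over all tested probe sets. H2BC6, H2BC12, H2BC13, H2BC14, H2BC15 and 31524_f_at thus stood higher than control at 72 h, when 39 of 46 replication genes stood lower. H2BC5, H2BC11, H2BC21 and 31522_f_at needed the induced arrays of 48 or 72 h to pass the filter and are no support here. The call of 32980_f_at rested on 1 array. In contrast, 39969_at, H2AZ1 and H2AX fell at 72 h as the replication genes did.

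Of 16 genes that act on histone gene transcription and on the 3′ end of histone mRNA, 9 were tested, and at 72 h 2 rose and 0 fell, near the 16.1% upward and 13.9% downward over all tested probe sets, so the count is no result about the list. HINFP, an activator of H4 genes, rose at least 2.49-fold (adjusted p = 0.036) and SRRT, a cap-binding partner that acts in histone mRNA 3′ processing, rose 1.64-fold (adjusted p = 0.0425). ZNF473, a zinc finger protein of the histone 3′ end complex, was lower in the average over 24, 48 and 72 h (at least 2.06-fold, adjusted p = 0.0328). SLBP, the stem-loop binding protein, differed by log2 -0.06 at 72 h (SE 0.24, adjusted p = 0.879). Of 16 cleavage and polyadenylation genes, 9 were tested and 0 passed the test at any of the 3 hours (median log2 0.17 at 72 h).

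Of 27 histone chaperone genes, 21 were tested, and at 72 h 3 rose and 4 fell, again near those shares. SSRP1, a subunit of the FACT complex, fell 2.82-fold (adjusted p = 5.37e-05) and ANP32B fell 2.67-fold (adjusted p = 1.83e-06). CHAF1A, the large subunit of the CAF-1 complex that places H3 and H4 on replicated DNA, fell 2.60-fold (adjusted p = 0.000248), and NASP, a chaperone of H3, H4 and linker histones, fell 2.03-fold (adjusted p = 0.00239). The genes that rose were ATRX (1.73-fold, adjusted p = 0.018) and DAXX (1.46-fold, adjusted p = 0.047), which together deposit H3.3, and NAP1L1 (1.27-fold, adjusted p = 0.0437), a chaperone of H2A and H2B.

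**Figure D5:**
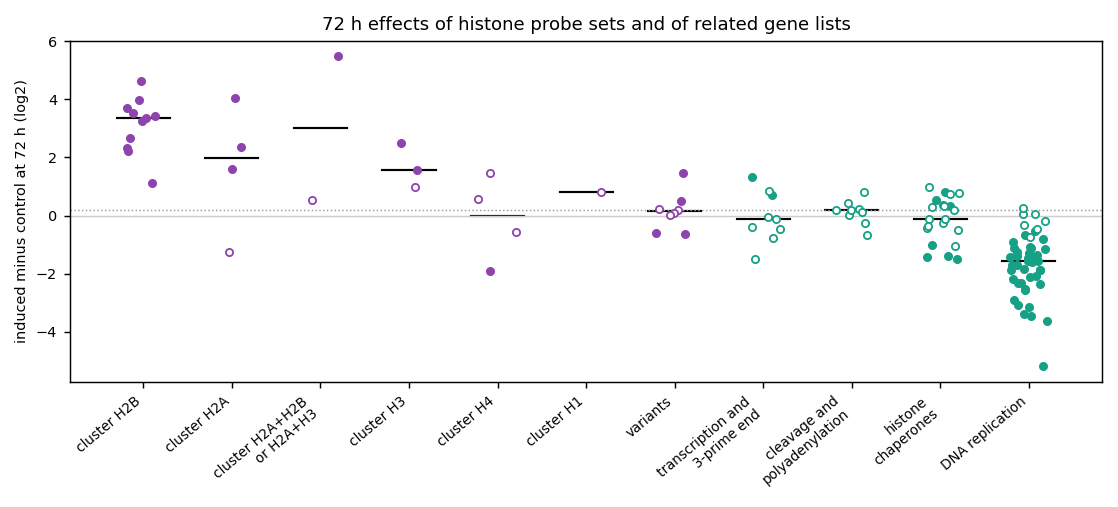
Induced minus control log2 difference at 72 h (vertical axis) for tested histone probe sets by type and for tested genes of the 4 related lists, with filled points for an adjusted p under 0.05, short black lines at the medians and a dotted line at the median of all tested probe sets. The cluster H2B values lie between log2 1.12 and 4.63, while the median of the DNA replication genes is log2 -1.56. The highest H2B value is that of H2BC21, which needed the induced arrays of 48 or 72 h to pass the filter.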

How the data were processed

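The authors deposited 1 linear intensity per probe set and array from Affymetrix U95Av2 arrays. All deposited arrays have the same mean, as the values themselves show, so they were scaled before deposit. How the probe signals were summarised is not stated in the labels or headers, and 25.8% of the deposited intensity values are below 0. Gene symbols came from the platform annotation (all 53 histone probe sets match current RefSeq symbols by gene ID).

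Values were floored at their 40th percentile (135.6), log2 was taken, and 7824 probe sets with at least 2 of 16 arrays above the median were tested. The 67 control probe sets were left out. limma 3.58.1 in R 4.3.3 (lmFit, eBayes with a mean-variance trend, 8 residual degrees of freedom) fitted 1 mean per group to all 16 arrays. Tests are two-sided, with Benjamini-Hochberg adjustment over all tested probe sets. The precision is limited by the number of arrays, 2 in a group. The average effect is the mean of the differences at 24, 48 and 72 h and shares their arrays.

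Every tested member with 1 symbol could be named. From each related list, the called genes with the largest changes in the average effect were to be named (up to 2 each way); genes named at 72 h, with SLBP and the other called chaperones, were added after their values were seen. Members, lists and tests were chosen with earlier results of these data known. Floored log2 values of arrays of the same group had r = 0.947 to 0.974, and no arrays were identical. Replicate numbers were not taken as pairs. Alternatives tried were other floors, an asinh scale, other normalizations and filters, no trend, a replicate block, the compared groups alone and each array left out. The model was tested on simulated data.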

Additional observations from a re-analysis of the deposited data

Results flagged for a closer look

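The effect of induction differed between 24, 48 and 72 h for 14 of the 33 tested histone probe sets by limma's F test over the 3 hours, all of them cluster probe sets. Of these, 5 (31768_at, H2AC6, 32609_at, H2BC5 and 36757_at) passed the filter through the induced arrays of 48 or 72 h alone. H2BC21 and 31522_f_at exceeded the median on 1 other array each, so they needed those arrays to pass as well. The values below are the 72 h effect minus the 48 h effect on the log2 scale, each with the adjusted p of the F test.

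Among H2B probe sets the value was 2.01 for H2BC21 (adjusted p = 0.00348), 1.97 for H2BC12 (0.000788), 1.96 for H2BC14 (0.0413) and 2.36 for H2BC15 (0.00816). It was 1.23 for H2BC5 (0.0215) and 1.64 for H2BC6 (0.00818). The probe sets with 5 H2B symbols gave 1.11 for 31522_f_at (0.0455) and 2.60 for 31524_f_at (0.0369). Among probe sets with H2A symbols it was 0.94 for H2AC6 (0.0117), 2.12 for 286_at (0.000115), 2.69 for 32609_at (0.000121) and 1.60 for 31768_at (0.039). The H3 probe set 36757_at gave 2.51 (0.003). The H4 probe set 39969_at, at -1.86 (0.00782), was the one with a negative value.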

How the results depend on the processing

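With 2 arrays in a group, single arrays carried calls. The count at 48 h, 10, was 6 when only the groups compared were fitted (5 of them among the 10) and 4 to 7 when 1 array was left out (4 to 6 among the 10; 4 without control replicate 2). The count at 12 h against 0 h, 2, was 1 after median centring, 0 without the filter, 0 without the mean-variance trend, 0 with only the groups compared and 0 to 1 without 1 array. The count of effects that differed between the hours, 14, was 9 with the floor at the 30th percentile and 7 to 13 without 1 array. With the replicate number as a block, 22 were called at 72 h, 10 at 48 h, 20 in the average and 16 for the difference between hours, so no count moved by over 1.5 times. Whether the numbers pair the samples is not stated in the labels. Same-numbered arrays of induced and control cells deviated together at r = 0.118 at 24 h, 0.007 at 48 h and -0.119 at 72 h. These values cannot settle whether the arrays were paired.

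The count at 72 h, 22, was 17 to 22 and that of the average, 18, was 13 to 20 in the alternatives run, and no called value turned its sign. For single probe sets, 1791 values kept their side of the threshold, 134 lost their call and 35 gained one. Some of the lost calls stand beside their results. The cause of these changes was not tested. Low signal limits the results: 9.81% of tested values lay at the floor, where only lower bounds of a fold exist, and cluster genes share sequence across probe sets.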
